A study of Mus musculus with 11 samples.

Results

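The 4 Notch receptors (Notch1, Notch2, Notch3, Notch4), the Jagged ligands Jag1 and Jag2, and the target genes Hes1, Hey1, Hey2 and Heyl were followed across 3 regions of the mouse testis. Probe sets were taken when their single annotated symbol was one of these 10 genes, which gave 20 of the 45101 probe sets on the array and 10 of the 18194 genes with a probe set of their own. Hes1, Hey1 and Hey2 have 1 probe set each, Notch1, Notch2, Notch3 and Jag2 have 2, and Notch4, Jag1 and Heyl have 3.

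Notch receptors are single-pass membrane proteins that bind Jagged or Delta-like ligands on a touching cell. Ligand binding lets ADAM proteases and then γ-secretase cut the receptor, and the freed intracellular domain joins RBPJ and Mastermind-like proteins in the nucleus to switch on genes such as the Hes and Hey transcriptional repressors. In the testis the pathway is best known in Sertoli cells, vessels and the interstitium, where it has been linked to germ cell and Leydig cell development.

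The rete testis (RT) is the collecting network into which the seminiferous tubules empty, the Sertoli valve (SV) is the terminal tubule segment lined by modified Sertoli cells, and the convoluted seminiferous tubule (ST) served as the control region. All 11 arrays came from 7-week-old W/Wv mice, a strain with mutant Kit alleles in which most germ cells are missing, and there was no wild-type array. Trypan blue was run in through the efferent ducts to mark the borders, and each array held RNA from a pool of 20 testes, with 3 such pools of RT, 4 of SV and 4 of ST. SV pieces were cut from tubules continuous with the RT, and the study's methods state that they probably carried RT cells. Values are MAS5.0 signals in array units, scaled by the authors so that the trimmed mean of each array was 500.0. The median signal was 65.8 to 110.4 per array and was highest in the 3 RT arrays. In this text a probe set is called higher or lower when limma gave an adjusted p under 0.05 and the means differed by over 2-fold on the log2 scale. SV and RT were each compared with the same 4 ST arrays, so those comparisons are not independent. Replicates are separate pools, and within such tissue pieces fewer cells of a type and less RNA per cell cannot be told apart.

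RT stood above ST for Notch1, Notch2, Jag1, Hey2 and Heyl. In RT against ST, 7 of the 20 probe sets (35%) were higher and 0 were lower, beside 10.2% of all probe sets higher and 5.48% lower. By gene, 5 of 10 were higher and 0 lower, beside 15.0% and 8.92% of all genes. The median log2 fold change of the 20 probe sets was 0.90, and that of all probe sets was 0.13. A block of replicates 1 and 2 against 3 and 4 left 7 of the 20 higher. With the replicate number as a block, 11 of the 20 were higher; with replicates 1 and 2 alone 8 were, and with replicates 3 and 4 alone, which leave 1 RT array, 2 were. In SV against ST, 1 probe set, that of Hey2, was higher and 0 were lower, beside 1.50% of all probe sets higher and 0.0665% lower. SV was lower than RT in 4 of the 20 probe sets, those of Notch1 (both), Notch2 and Heyl, and higher in 0, beside 4.99% lower and 2.95% higher among all probe sets. At an unadjusted limma p under 0.05, without a fold limit, RT was above ST in 9 and below in 0, beside 20.4% and 14.5% of all probe sets. By the same measure SV was above ST in 3 and below in 0, beside 8.25% and 4.98%, and above RT in 0 and below in 8, beside 11.2% and 15.1%. Quantile normalization and median centring gave 1 probe set lower in RT, that of Hey1.

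**Figure D1:**
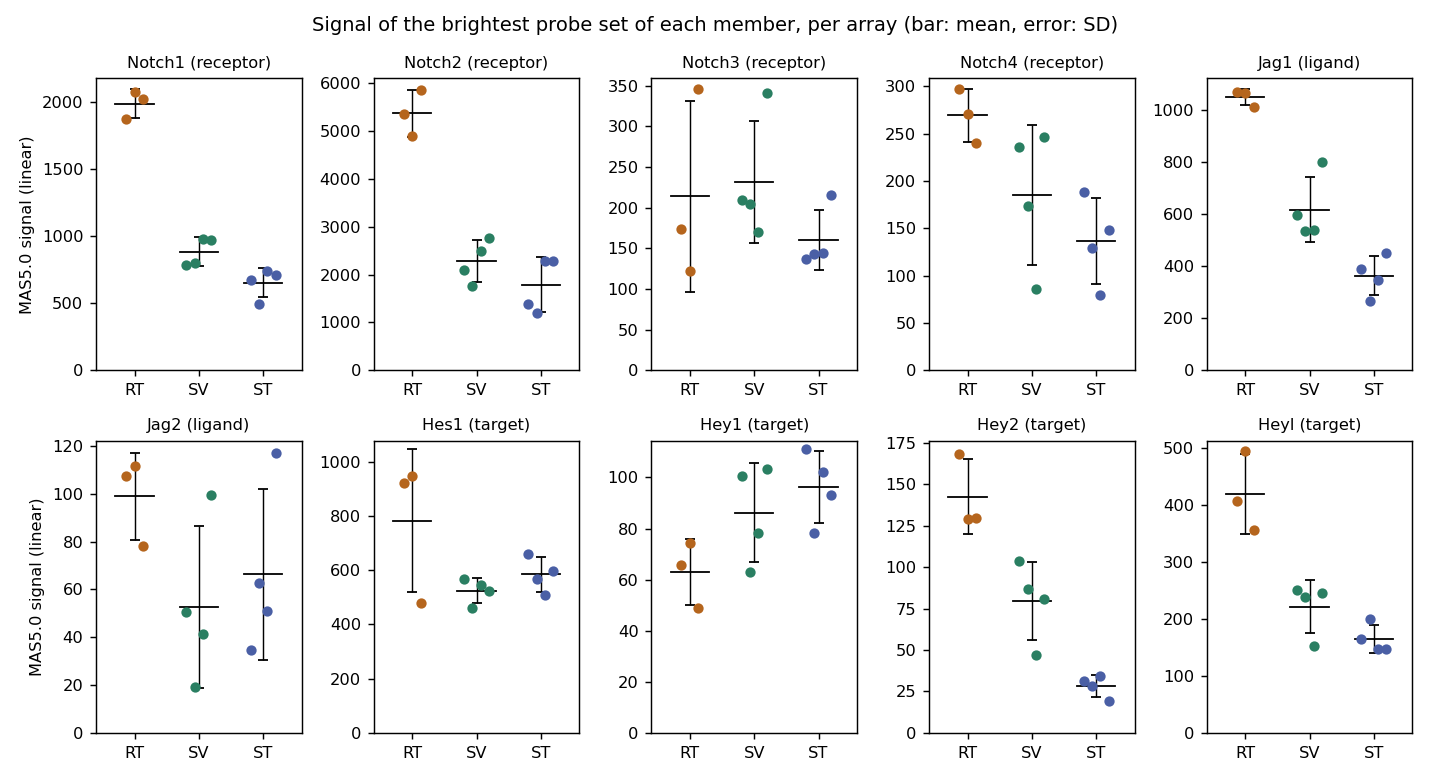
MAS5.0 signal (linear axis from 0) of the brightest probe set of each of the 10 genes. Each point is 1 array, with 3 in RT and 4 each in SV and ST; the long bar is the mean and the error bar the SD. RT points lie above all ST points for Notch1, Notch2, Notch4, Jag1, Hey2 and Heyl, and below them for Hey1.

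Notch1, a receptor used in many epithelia and vessels, was higher in RT on both of its probe sets. On probe set 1418634_at its signal was 1868, 2076 and 2018 in RT, 787, 795, 980.1 and 969.9 in SV, and 669, 495, 742 and 708 in ST. The 3 RT arrays were far above all others, and the 4 SV arrays were a little above the 4 ST arrays with no overlap. RT exceeded ST by 1.62 ± 0.16 on the log2 scale (SE, 3.08-fold, adjusted p = 8.91e-06), and SV was below RT by a log2 fold change of -1.18 ± 0.16 (adjusted p = 4.22e-04), or -0.86 and so under 2-fold with median centring. SV against ST was 0.44 ± 0.14 (adjusted p = 0.159) and was not called.

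A second Notch1 probe set, 1418633_at, gave signals of 621, 743 and 405 in RT, 213, 352, 266 and 230.2 in SV, and 193, 277, 282 and 291 in ST. RT again lay above both other regions, while SV and ST overlapped. RT against ST was 1.15 ± 0.24 on the log2 scale (adjusted p = 0.00325), and SV against ST was 0.02 ± 0.23 (adjusted p = 0.990). The RT call on this probe set fell under 2-fold with quantile normalization (0.94, adjusted p = 0.0141), with median centring (0.73, adjusted p = 0.0497) and without RT replicate 2 (0.96, adjusted p = 0.0251). Without RT replicate 2 its SV against RT difference of -1.14 ± 0.24 (adjusted p = 0.00742) became -0.95 (adjusted p = 0.0519).

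Notch2, the close paralogue of Notch1, was also higher in RT. Probe set 1455556_at read 5360.2, 4889 and 5864 in RT, 2093, 1767, 2494 and 2762 in SV, and 1390.0, 1190.2, 2277 and 2287 in ST. RT was above every other array, and SV and ST overlapped, with replicates 1 and 2 of ST below replicates 3 and 4. RT exceeded ST by 1.64 ± 0.23 on the log2 scale (3.13-fold, adjusted p = 1.54e-04), and SV was below RT by a log2 fold change of -1.25 ± 0.23 (adjusted p = 0.00288), or -0.94 and so under 2-fold with median centring. SV against ST was 0.39 ± 0.21 (adjusted p = 0.483). The other Notch2 probe set, 1451889_at, read 113 ± 30.1 in RT (SD, n = 3) and 83.3 ± 20.5 in ST (n = 4), and was not called (log2 fold change 0.44 ± 0.31, adjusted p = 0.363). These 2 probe sets thus gave different calls for the same gene.

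Notch3, a receptor of vascular smooth muscle and pericytes, was not called in any comparison. Its brighter probe set, 1421965_s_at, read 173, 122 and 347 in RT, 209.9, 205, 170.3 and 341 in SV, and 137, 143, 144 and 215 in ST. All regions overlapped. RT against ST was 0.31 ± 0.34 (adjusted p = 0.583) and SV against ST 0.51 ± 0.32 (adjusted p = 0.559) on the log2 scale. The other Notch3 probe set, 1421964_at, read 2.82 to 46.0 over the 3 RT arrays and 5.51 to 33.4 over ST, and overlapped everywhere.

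Notch4, a receptor found mainly in endothelium, lay just outside the threshold in RT. Probe set 1449146_at read 297, 271 and 241 in RT, 236, 174, 85.6 and 247 in SV, and 189, 129, 80.0 and 148 in ST. Every RT array was above every ST array, and SV overlapped both. RT against ST was 1.04 ± 0.37 on the log2 scale (2.06-fold, adjusted p = 0.0531), and with the replicate number as a block it was 1.16 ± 0.23 (adjusted p = 0.00220). It also passed without SV replicate 3 (1.04, adjusted p = 0.0131) and without ST replicate 1 (1.22, adjusted p = 0.0372). The difference was smaller with quantile normalization (0.75, adjusted p = 0.154) and with median centring (0.62, adjusted p = 0.257). With signals under 32 raised to 32 its adjusted p was 0.0978. Probe sets 1436901_at and 1456263_at of Notch4 were dimmer than the array median and not called. RT against ST on 1456263_at went from 1.35 ± 0.70 (adjusted p = 0.198) to 1.73 ± 0.58 (adjusted p = 0.0396) with the replicate block and to 1.91 (adjusted p = 0.04999) without ST replicate 4. On that probe set it was 1.01 (adjusted p = 0.320) with quantile normalization and 0.93 (adjusted p = 0.352) with median centring. With signals under 32 raised to 32 it fell to 0.21 (adjusted p = 0.577).

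The ligand Jag1 was graded from RT through SV to ST on its brightest probe set only. On probe set 1434070_at the signal was 1072, 1066 and 1015 in RT, 595, 536, 538 and 799.7 in SV, and 390.5, 268, 349 and 449.6 in ST. No region overlapped another. RT exceeded ST by 1.55 ± 0.19 on the log2 scale (2.94-fold, adjusted p = 5.39e-05). SV against ST was 0.77 ± 0.18 (1.70-fold, adjusted p = 0.0392), which passed the limit on p but not the 2-fold limit, and SV against RT was -0.79 ± 0.19 (adjusted p = 0.0142), likewise under 2-fold. The SV against ST adjusted p was 0.0489 with quantile normalization and 0.00209 with the replicate block. It was 0.0918 with median centring and 0.0773 with signals under 32 raised to 32. SV against RT was -0.76 (adjusted p = 0.0116) with quantile normalization and -0.47 (adjusted p = 0.120) with median centring. Of the 20 probe sets, 3 had SV above ST with no overlap (Notch1 1418634_at, Jag1 and Hey2), beside 4.64% of all probe sets, and 7 had SV below RT, beside 15.4%.

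Further Jag1 probe sets, 1421105_at and 1421106_at, were not called. Probe set 1421106_at read 176 ± 66.5 in RT and 104 ± 37.6 in ST (log2 fold change 0.75 ± 0.41, adjusted p = 0.221), and with the replicate block 1.02 ± 0.23 (adjusted p = 0.00505). That fold change was 0.36 (adjusted p = 0.577) with quantile normalization and 0.33 (adjusted p = 0.592) with median centring. Jag2, the other Jagged ligand, had both probe sets below the median signal of the array. Probe set 1426431_at read 107, 112 and 78.2 in RT, 50.7, 19.4, 41.5 and 99.4 in SV, and 34.6, 62.7, 51.2 and 117 in ST. The regions overlapped, and no Jag2 difference was called, though SV against RT went from -1.12 ± 0.53 (adjusted p = 0.202) to -1.48 ± 0.42 (adjusted p = 0.0255) with the replicate block. That difference was -0.80 (adjusted p = 0.333) with quantile normalization and -0.81 (adjusted p = 0.316) with median centring.

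**Figure D2:**
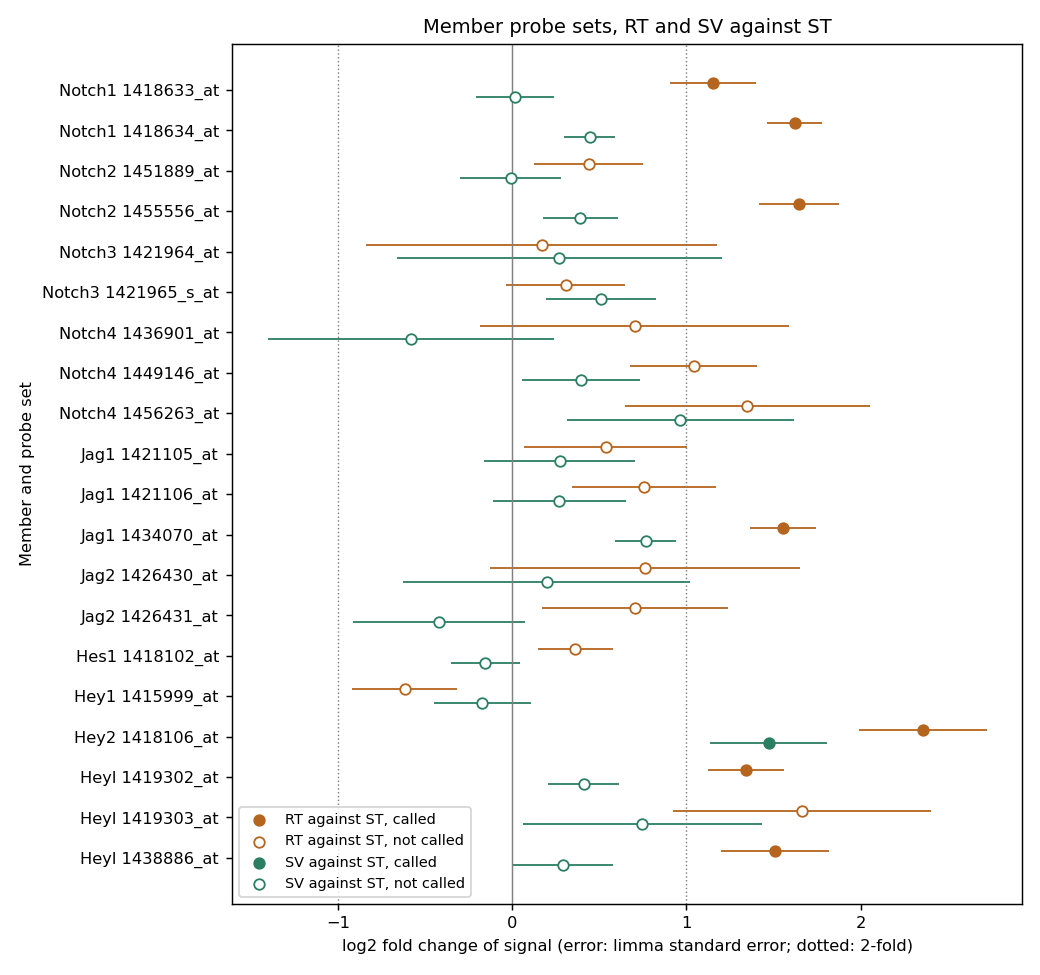
Log2 fold change of signal against ST for all 20 probe sets, RT in orange and SV in green, with limma standard errors; filled points are called and dotted lines mark 2-fold. In RT 7 points are filled, and in SV that of Hey2 is the single filled point.

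Among the targets, Hey2, a bHLH repressor best known from the heart and arteries, showed the greatest RT fold change of the called probe sets. Its signal on 1418106_at was 169, 129 and 129 in RT, 104, 86.9, 47.0 and 80.6 in SV, and 31.2, 28.3, 34.3 and 19.2 in ST. The regions did not overlap: every RT array was above every SV array and every SV array above every ST array. RT exceeded ST by 2.36 ± 0.36 on the log2 scale (5.13-fold, adjusted p = 3.33e-04) and SV exceeded ST by 1.47 ± 0.34 (2.77-fold, adjusted p = 0.0392). SV against RT was -0.89 ± 0.36 (adjusted p = 0.136).

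The SV call of Hey2 was close to its threshold. SV against ST gave an adjusted p of 0.0614 with quantile normalization and 0.0836 with median centring, of 0.0210 with the replicate block, and of 0.0357 with signals under 32 raised to 32. Leaving out 1 array at a time kept the call only without SV replicate 3; without any other single array the log2 fold change was 1.30 to 1.58 and the adjusted p 0.0542 to 0.152. Its mean log2 signal was below the median over probe sets. In SV replicates 1 to 4, beside Hey2 signals of 104, 86.9, 47.0 and 80.6, the summed signal of the rete testis epithelium markers was 8702, 5048, 3962 and 6360.4, and that of the blood endothelium markers was 7661, 6828, 4586 and 10040.2. SV replicate 3 was lowest in all 3 measures. That array was also lowest of SV in the efferent duct, lymphatic endothelium, smooth muscle, Leydig cell and macrophage sums. Its Sertoli cell and mesothelium sums were the highest of SV. The part of any cell type in the Hey2 signal was not tested.

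Promoter sequence is shown for Hey2 and for the 3 other called genes with an entry in the RefSeq table, because RBPJ is the DNA-binding partner through which Notch acts. Windows run from 250 bases before the annotated start to 20 bases after it (GRCm38.p6), written 5′ to 3′ along the gene, with capitals for TGGGAA, the core bound by RBPJ, or its reverse complement. Entries were found for 7 of the 10 genes, and none was found for Hes1, Hey1 or Heyl.
Hey2, chr10:30842764-30843033, minus strand: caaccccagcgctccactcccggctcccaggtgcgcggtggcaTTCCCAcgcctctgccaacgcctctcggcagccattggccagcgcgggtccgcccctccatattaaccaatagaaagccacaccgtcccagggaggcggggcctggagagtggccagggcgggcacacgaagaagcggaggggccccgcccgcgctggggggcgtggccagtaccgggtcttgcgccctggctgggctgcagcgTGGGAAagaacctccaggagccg
Notch1, chr2:26503803-26504072, minus strand: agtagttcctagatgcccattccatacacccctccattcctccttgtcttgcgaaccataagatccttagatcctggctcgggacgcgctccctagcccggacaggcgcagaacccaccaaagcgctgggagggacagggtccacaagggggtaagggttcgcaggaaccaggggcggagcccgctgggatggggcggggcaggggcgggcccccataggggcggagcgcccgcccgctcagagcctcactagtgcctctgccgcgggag
Notch2, chr3:98013288-98013557, plus strand: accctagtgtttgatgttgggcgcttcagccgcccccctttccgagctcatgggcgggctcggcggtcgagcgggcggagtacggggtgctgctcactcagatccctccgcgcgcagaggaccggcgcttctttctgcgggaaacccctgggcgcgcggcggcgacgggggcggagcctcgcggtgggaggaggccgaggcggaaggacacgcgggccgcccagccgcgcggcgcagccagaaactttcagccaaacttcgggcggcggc
Jag1, chr2:137116501-137116770, minus strand: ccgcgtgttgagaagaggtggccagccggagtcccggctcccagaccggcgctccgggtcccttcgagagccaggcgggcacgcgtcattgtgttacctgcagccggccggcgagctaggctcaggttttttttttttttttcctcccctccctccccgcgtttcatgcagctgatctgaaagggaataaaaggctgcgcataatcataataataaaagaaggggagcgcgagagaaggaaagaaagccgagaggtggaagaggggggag
The Hey2 window holds 2 matches to TGGGAA, 1 on each strand, at -207 to -202 and across the start, and both belong to the longer GTGGGAA. Of 32851 windows of this length, 23.11% hold TGGGAA on either strand and 3.166% hold 2 or more, while 5.753% hold GTGGGAA and 0.207% hold 2 or more. TGGGAA was not present in the windows of Notch1, Notch2, Notch3, Notch4, Jag1 or Jag2. The palindromic E-box CACGTG, bound by many bHLH proteins, was in 6.569% of all windows and in none of these 7. These matches describe letters in short windows and not binding.

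Heyl, another Hey repressor, which is expressed in vascular smooth muscle, was higher in RT on 2 of its 3 probe sets. Probe set 1419302_at read 407, 494 and 356 in RT, 251, 238, 153 and 245 in SV, and 165, 199.7, 148 and 148 in ST. RT was above all other arrays, and SV overlapped ST through its replicate 3. RT exceeded ST by 1.34 ± 0.22 on the log2 scale (2.54-fold, adjusted p = 5.21e-04), which with median centring was 0.92 (adjusted p = 0.0102) and so under 2-fold. SV against ST was 0.41 ± 0.20 (adjusted p = 0.424).

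Heyl probe set 1438886_at read 192, 217 and 171 in RT, 82.2, 80.9, 84.1 and 84.1 in SV, and 87.2, 38.3, 69.7 and 90.0 in ST. The RT arrays were again highest and SV lay within the ST range. RT exceeded ST by 1.51 ± 0.31 on the log2 scale (2.85-fold, adjusted p = 0.00272) and SV was below RT by a log2 fold change of -1.22 ± 0.31 (adjusted p = 0.0193). That lower call in SV was lost without RT replicate 1 (adjusted p = 0.0772), without RT replicate 2 (adjusted p = 0.0925), with quantile normalization (-0.95, adjusted p = 0.0777), with median centring (-0.90, adjusted p = 0.0897) and with replicates 1 and 2 alone (adjusted p = 0.0702). The third, 1419303_at, had all RT arrays above all ST arrays but was not called (1.67 ± 0.74, adjusted p = 0.127), and passed with the replicate block (1.68 ± 0.56, adjusted p = 0.0378). It did not pass with quantile normalization (1.30, adjusted p = 0.278) or median centring (1.24, adjusted p = 0.255).

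Hes1, a widely used readout of Notch activity, was not called. It read 921, 949 and 478 in RT, 568, 462, 545 and 522 in SV, and 662, 568, 509 and 599 in ST. RT replicates 1 and 2 were above every other array, and RT replicate 3 was below every ST array. RT against ST was 0.36 ± 0.21 on the log2 scale (adjusted p = 0.262), and without RT replicate 3 it was 0.68 ± 0.16 (adjusted p = 0.00657), still under 2-fold. SV against ST was -0.15 ± 0.20 (adjusted p = 0.839).

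Hey1, the remaining Hey repressor, was the single probe set of the 20 with all RT arrays below all ST arrays, beside 13.6% of all probe sets. It read 65.9, 74.3 and 49.0 in RT, 101, 62.8, 78.3 and 103 in SV, and 111, 78.2, 102 and 93.2 in ST. The SV arrays overlapped both regions. RT against ST was -0.62 ± 0.30 on the log2 scale (adjusted p = 0.164), and was called lower with quantile normalization (-1.01, adjusted p = 0.0251) and with median centring (-1.04, adjusted p = 0.0266). Those scalings moved the median log2 fold change of all probe sets in RT against ST from 0.13 to -0.07 and -0.29. Of the 20 probe sets, 9 had all RT arrays above all ST arrays, beside 20.1% of all probe sets.

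SV lay between RT and ST to different degrees among the called genes. The share of the RT excess over ST that was present in SV, (SV - ST)/(RT - ST) on mean signals, was 44.9% for Hey2 and 36.9% for Jag1. It was 17.2% and 1.36% for the probe sets of Notch1, 13.8% for Notch2, and 22.3% and 9.44% for those of Heyl. The median over all 4607 probe sets higher in RT was 20.3%. Only probe sets called higher in RT entered, so an SV mean below that of RT was favoured in advance. These shares are a description and have no test, and differences between them were not tested.

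Of the other genes of the pathway, 62 were measured. In RT against ST 7 of the 62 were higher and 2 lower, both under the 15.0% and 8.92% of all genes, and in SV against ST 4 were higher and 0 lower, beside 2.65% and 0.126% of all genes. Their median log2 fold change, with 1 probe set per gene, was 0.25 in RT and 0.04 in SV, beside 0.08 and 0.02 over all genes. None of the 8 receptor cleavage genes measured and none of the 9 nuclear complex and coactivator genes was called in any of the 3 comparisons. Rbpj, the DNA-binding partner of the cut receptor, read 2337 ± 211 in RT (SD, n = 3), 2112 ± 184 in SV and 2039 ± 238 in ST (n = 4 each) on its brightest probe set. Its log2 fold change was 0.20 ± 0.13 in RT (adjusted p = 0.308) and 0.05 ± 0.12 in SV (adjusted p = 0.919).

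Of the Delta-type ligands, Dll1 was higher and Dll3 lower in RT. Dll1, which activates Notch receptors from the neighbouring cell, read 176 ± 31.4 in RT, 89.7 ± 21.2 in SV and 79.6 ± 19.4 in ST (RT against ST 1.16 ± 0.29, adjusted p = 0.0100). That call was lost with quantile normalization (0.78, under 2-fold) and median centring (0.73, adjusted p = 0.0639). Dll3, a divergent ligand that does not activate Notch in trans, read 68.5 ± 17.3 in RT, 165 ± 40.3 in SV and 181 ± 29.5 in ST (RT against ST -1.42 ± 0.27, adjusted p = 0.00149). The SV and ST arrays overlapped for both. The endothelial ligand Dll4 read 44.5 ± 22.5 in RT and 60.8 ± 23.9 in ST on its brighter probe set and was not called. Of the non-canonical ligands, Dlk1 read 280.0 ± 80.3 in RT, 246 ± 64.4 in SV and 157 ± 53.0 in ST (RT against ST 0.85 ± 0.31, adjusted p = 0.0600), and Dlk2 was not called.

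Lfng, a glycosyltransferase that modifies Notch receptors and alters their response to Jagged and Delta-like ligands, was higher in both RT and SV on its brighter probe set. That probe set read 157 ± 28.3 in RT, 155 ± 46.2 in SV and 39.0 ± 15.9 in ST. RT against ST was 2.09 ± 0.38 on the log2 scale (adjusted p = 0.00106) and SV against ST was 2.03 ± 0.35 (adjusted p = 0.00761). SV against RT was -0.06 ± 0.38 (adjusted p = 0.945). Neurl1a, a ubiquitin ligase that acts on Notch ligands, was higher in SV (1.40 ± 0.29, adjusted p = 0.0215) on 1 of its probe sets and was not called in RT (0.92 ± 0.31, adjusted p = 0.0426, under 2-fold).

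Of the Deltex family of ubiquitin ligases, Dtx1 was lower and Dtx3l higher in RT, and Dtx2, Dtx3 and Dtx4 were not called. Dtx1 read 2096 ± 373 in RT, 4512 ± 1656 in SV and 5928 ± 500.2 in ST (RT against ST -1.51 ± 0.23, adjusted p = 2.50e-04), and Dtx3l read 475 ± 67.8, 340.4 ± 70.5 and 200.0 ± 14.4 (1.24 ± 0.19, adjusted p = 3.73e-04, and 0.82 with median centring, under 2-fold). The corepressor Ctbp2 was higher in RT (2.52 ± 0.20, adjusted p = 2.11e-06) and in SV (1.29 ± 0.18, adjusted p = 0.00188) on its brighter probe set. The other Ctbp2 probe set was higher in RT (2.18 ± 0.28, adjusted p = 7.99e-05), while in SV it missed the threshold (0.93 ± 0.26, adjusted p = 0.0940). Of other genes known as targets in some tissues, Ccnd1, a G1 cyclin, was higher in RT (3.51 ± 0.30, adjusted p = 3.99e-06) and SV (1.73 ± 0.28, adjusted p = 0.00459). Id1, an inhibitor of bHLH factors, was higher in RT (1.32 ± 0.20, adjusted p = 2.44e-04; 0.90 and under 2-fold with median centring) and was not called in SV (0.55 ± 0.18, adjusted p = 0.162). Gata3, a zinc finger factor, was called higher in RT, with signals of 23.2 to 111 in RT and 1.14 to 4.46 in ST. The size of its difference depends on these very low ST signals: the log2 fold change was 5.06 ± 0.77 (adjusted p = 2.98e-04), and with signals under 32 raised to 32 it was 1.15 ± 0.36 (adjusted p = 0.0482).

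**Figure D3:**
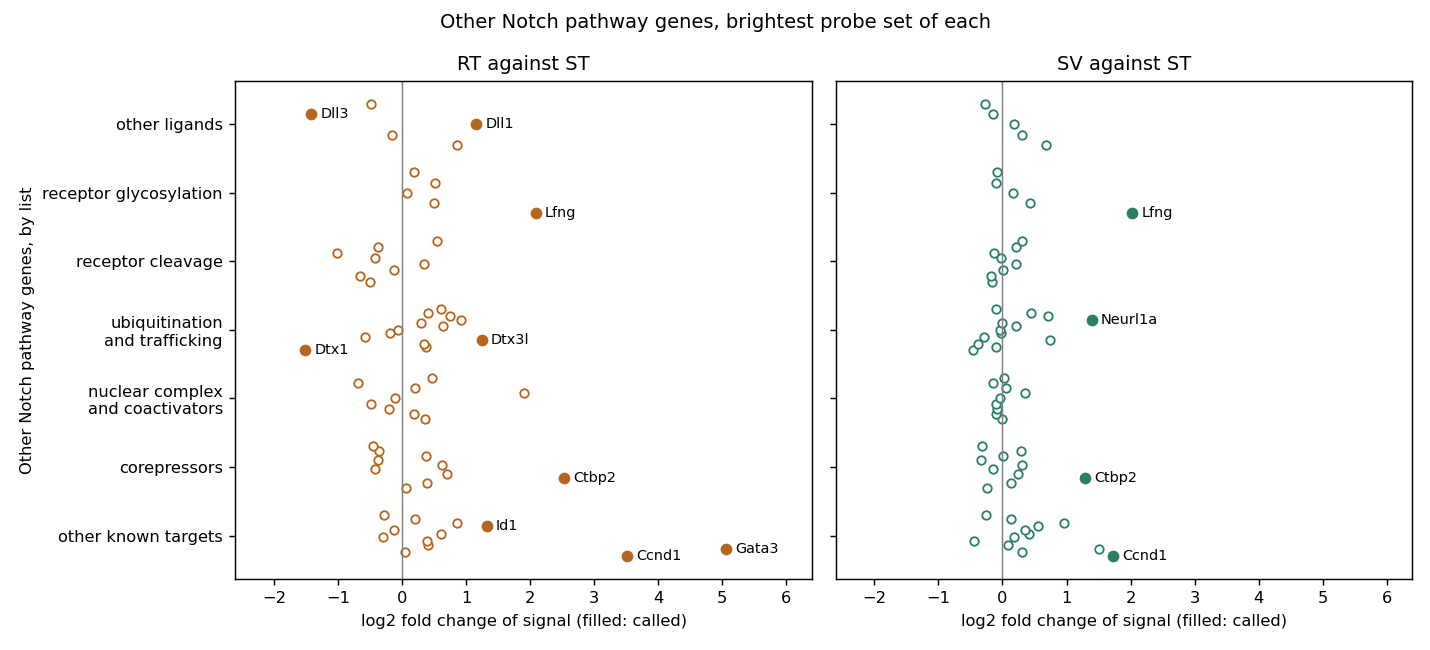
Log2 fold change of signal in RT (left) and SV (right) against ST for the brightest probe set of each of 62 other Notch pathway genes, 1 point a gene, by list. Filled points are called and named: 7 higher and 2 lower in RT, and 4 higher in SV.

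Markers of several cell types moved with the regions. Over all genes, 15.0% were called higher and 8.92% lower in RT against ST, and 2.65% and 0.126% in SV against ST. Of 12 rete testis epithelium markers, 11 were higher in RT than in ST and 9 in SV, with summed signals of 22993 to 38159 in RT, 3962 to 8702 in SV and 1031 to 1367 in ST. Cdh1, an adhesion molecule of epithelia, read 6005 ± 922 in RT, 1300 ± 557 in SV and 68.9 ± 15.3 in ST. Among 14 markers of Sertoli cells, 9 were called lower in RT and 0 in SV, with sums of 58918 to 80683 in RT, 106942 to 143838 in SV and 134105 to 170403 in ST. RT arrays thus had the highest rete marker signal and still gave signal for the Sertoli cell list, and SV arrays gave both. Markers of that list need not be confined to Sertoli cells, and Wt1 is also in the mesothelium list. The cells behind that signal in RT were not tested. Against ST, RT was also higher in 8 of 9 efferent duct epithelium and 3 of 6 lymphatic endothelium markers. The counts of 1 of 8 macrophage and 1 of 5 mesothelium markers higher in RT were near the 15.0% of all genes. RT was higher in 1 and lower in 5 of 8 germ cell markers, and called in 0 of 5 Leydig cell markers.

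Vascular markers are given because Notch3, Notch4, Hey2 and Heyl are known from vessel walls. Their counts stand beside 15.0% of all genes higher and 8.92% lower in RT, and 2.65% higher in SV. Of 15 blood endothelium markers 6 were higher and 1, Robo4, was lower in RT, and 2 were higher in SV, with sums of 11816 to 13986 in RT, 4586 to 10040.2 in SV and 3044 to 4936 in ST. Without Sox17 and Kdr, an alternative chosen after seeing the data, the sums of the other 13 were 3509.6 to 7164 in RT, 3318 to 7528 in SV and 2749 to 4388 in ST, so most of the gap between RT and ST came from those genes. The endothelial adhesion molecule Pecam1 read 81.6 ± 49.0 in RT, 118 ± 51.8 in SV and 99.3 ± 37.3 in ST and was not called. Sox17 read 4961 ± 825, 1245 ± 573 and 217 ± 82.0 in these regions in turn, and the VEGF receptor Kdr read 2915 ± 251, 879.9 ± 198 and 206 ± 50.6. Of 14 smooth muscle, myoid and pericyte markers 1, Pdgfrb, was higher and 4 were lower in RT, and the sums were 11833 to 17404 in RT, 19318 to 22834 for SV and 19060.0 to 27869 for ST. Acta2, smooth muscle actin, read 3212 ± 1539 in RT and 9574 ± 1953 in ST (log2 fold change -1.65, adjusted p = 2.08e-04). No marker of these lists was at 0 in any array. The part of each cell type in the Notch pathway signals was not tested.

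**Figure D4:**
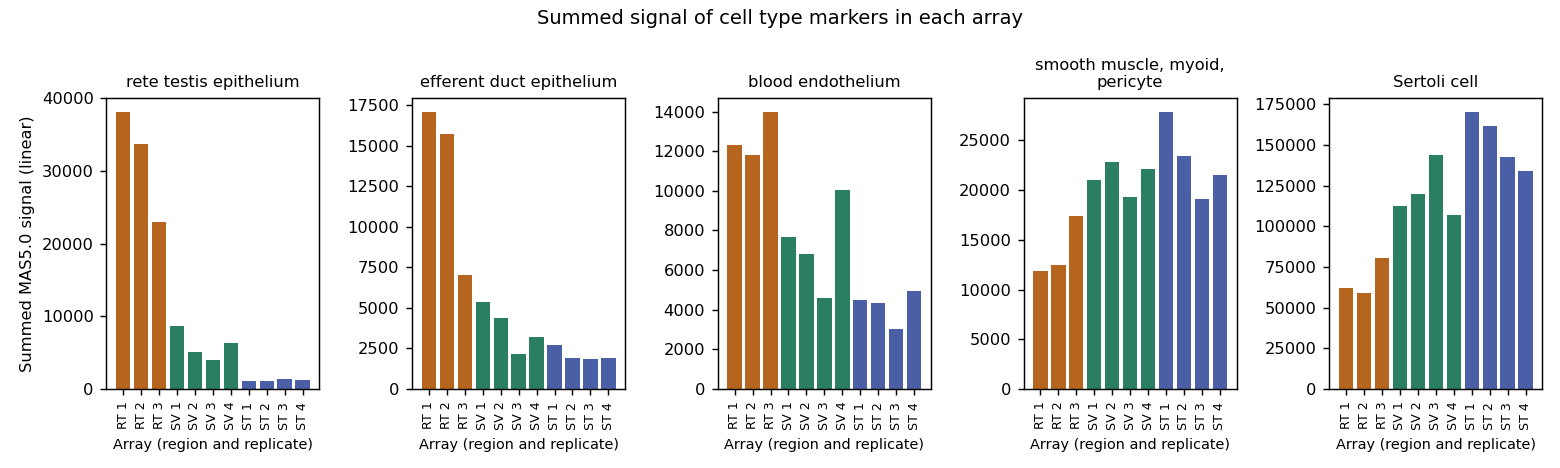
Summed MAS5.0 signal (linear axis from 0) of the markers of 5 cell types in each of the 11 arrays, 1 bar an array. Rete testis epithelium sums are highest in RT and lowest in ST, while Sertoli cell sums are lowest in RT.

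Among genes brighter than the array median, likeness to a member was described by Pearson correlation of log2 signal over the 11 arrays, which share regions, and no p is given. Notch2, the brightest receptor, was most like Ktn1 (r = 0.986), Ndrg1 (0.982) and Pkp4 (0.981) among 11591 genes. Jag1 was most like Stox2 (0.985), Fat4 (0.983) and Tfcp2l1 (0.983). Hes1 was most like Tmem37 (0.932), Alox12 (0.909) and Crispld2 (0.895).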

How the data were processed

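RNA of the 11 pools was purified and labelled by the authors with 3′ IVT reagents and hybridized to Affymetrix Mouse Genome 430 2.0 arrays. The deposited values are intensity values on a linear scale, which the authors summarized by MAS5.0 and scaled per array; the array annotation gave 34958 probe sets 1 symbol, 932 several and 9211 none, and 34754 of the former matched RefSeq by Entrez ID. The table has no raw counts, detection calls or probe intensities, so the precision rests on the number of arrays.

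Signals were taken to log2 with no filter or added constant and fitted in R 4.3.3 with limma 3.58.1 (lmFit, eBayes with trend) over all 11 arrays and all 45101 probe sets, with two-sided p adjusted by Benjamini-Hochberg, and called at adjusted p under 0.05 and over 2-fold. The methods' t-test, other scalings, a floor of 32, a filter, blocks of replicates and leaving out arrays were alternatives. The scalings, floor and block for other pathway genes were added after seeing the data. The calling steps were tested on simulated data. All members were named with every probe set; of other pathway genes up to 3 called ones per list and direction with the greatest fold change, every ligand and Rbpj; of markers up to 4 of the brightest in a list; and for the brightest receptor, ligand and target the 3 genes most correlated. Pecam1, Pdgfrb, Adam10, Adam17 and Dtx4 lie outside this rule and were chosen after their values were seen. The members and lists were chosen with earlier results of these data known. After region means were removed, arrays of the same replicate number in different regions correlated at 0.0692 to 0.190 over all probe sets. Over the brighter ones the range was 0.277 to 0.670. Replicates were also grouped into sets, 1 and 2 or 3 and 4, which the sample labels do not name. RT has no replicate 4, so these sets are not balanced over the regions. Arrays of another number in the same set (1 and 2, or 3 and 4) correlated at 0.0698 to 0.178 and 0.168 to 0.477. Those of other sets (1 and 2 against 3 and 4) correlated at -0.179 to -0.0761 and -0.580 to -0.276. The same-number and same-set ranges overlap, so these values do not settle whether arrays pair by number. Values with the number as a block are given where they change the call of a Notch receptor, Jagged ligand or target probe set. Some genes of the pathway and marker lists were not analysed here.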

Additional observations from a re-analysis of the deposited data

Results flagged for a closer look

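Of 40 groups of 4 arrays, 3 had an array far from the other 3 by Dixon's gap ratio at the 95% level, and chance alone gives about 1 in 20 such groups. For Notch1 probe set 1418633_at, ST replicate 1 read 193 beside 277 to 291 in the others (gap ratio 0.850). For Notch3 probe set 1421965_s_at, ST replicate 4 read 215 beside 137 to 144 (gap ratio 0.917). For Heyl probe set 1419302_at, SV replicate 3 read 153 beside 238 to 251 (gap ratio 0.868). In SV replicate 3 the summed rete testis epithelium and blood endothelium markers were also lowest of SV, at 3962 and 4586. So were its efferent duct, lymphatic endothelium, smooth muscle, Leydig cell and macrophage sums, while its Sertoli cell and mesothelium sums were highest of SV. The cause of these gaps was not tested.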

How the results depend on the processing

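The count of Notch probe sets higher in SV than in ST, 1 as reported, was 0 with the adjusted t-test of the methods, quantile normalization, median centring, brighter probe sets only (which leave out Hey2), a fit on the compared groups only and replicates 3 and 4 alone, and 2 with no fold threshold. The count higher in RT than in ST, 7 as reported, was 11 with the replicate block and 2 with replicates 3 and 4 alone, where RT has 1 array that is assumed to vary like the others. The count lower in RT than in ST, 0 as reported, was 1 under median centring and under quantile normalization. The count lower in SV than in RT, 4 as reported, was 0 with median centring and with replicates 3 and 4 alone, and 2 with 1 probe set per gene. Leaving out 1 array at a time gave 0 to 1 for SV above ST, 6 to 8 for RT above ST, and 2 to 5 for SV below RT, with 2 only without RT replicate 2. The replicate block left the SV above ST count at 1 and gave 5 for SV below RT. A block of replicates 1 and 2 against 3 and 4 gave 1 for SV above ST, 7 for RT above ST and 4 for SV below RT.

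Over all probe sets, RT against ST gave 4607 higher and 2473 lower as reported, 3482 and 3535 with quantile normalization, and 2812 and 5254 with median centring. Of 1446 alternative values of single Notch probe sets, 1388 kept their side of the threshold, 38 lost a call, 20 gained one and 0 reversed a called direction; 57 changed sign with no call in either setting. The cause of these changes was not tested. With 3 or 4 arrays a region and no detection calls, dim probe sets have large standard errors, up to 1.01 on the log2 scale for Notch3 1421964_at, and a difference such as 2.55-fold for Notch4 1456263_at (SE 0.70) was not called.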
